A study of Mus musculus with 18 samples.

Results

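Wild-type mouse mast cells were compared 24 h and 4 h after stimulation through IgE. The comparison takes in 6 of the study's 18 arrays, chosen by the genotype and the time in the sample labels: 3 arrays of cells stimulated for 24 h and 3 of cells stimulated for 4 h. Each time has 1 array from each of the wild-type cultures numbered 6, 8 and 9, so that the change could be read within a culture. The cells are labelled as mast cells of female mice that are wild type for Dnmt3a, the gene of an enzyme that sets new DNA methylation. The treatment labels name IgE, and the study's design text adds antigen. A label of 5 weeks may give the age of the mice or that of the cultures. The other arrays are 3 of the same cultures without treatment and 9 of Dnmt3a knockout cultures 3, 4 and 6, also female, in the same conditions. The labels used here name no strain, no tissue of origin, no growth factors and no antigen, and whether 1 mouse gave 1 culture is not stated. The p-values therefore measure the spread left among the arrays of the study once culture and condition are taken out, which may be technical in part.

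Mast cells carry IgE on a high-affinity receptor, Fc epsilon RI, and antigen that cross-links this IgE makes them empty their granules at once and then transcribe cytokines and chemokines through NF-kB, NFAT and AP-1 factors. Much of this transcription is switched off again by inhibitors that are themselves induced, such as the NF-kB inhibitor protein encoded by Nfkbia. Cultured mast cells also divide, and the genes of the cell cycle come on in order, those of DNA synthesis under E2F factors and those of mitosis later, through promoters that often hold CCAAT boxes and a cell cycle homology region (CHR).

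The arrays were Illumina mouse bead arrays, and a level is a log2 probe intensity after background correction and quantile normalisation. A probe was called above the detection limit of an array when it was brighter than 99% of the probes for smell receptor genes there. The 6 arrays had median signals of 108 to 143 and limits of 128 to 188 before normalisation, and 30.5% to 32.9% of their probes were above the limit. The small number of arrays limits the precision. Each ± after a log2 change is its standard error from limma, fitted with the culture as a block (a replicate block). The wild-type change is a mean over 3 cultures. Its error rests on the spread left in all arrays of the study, untreated and knockout ones included, and not on these cultures alone. A gene is said to have risen or fallen where its p, adjusted over all genes by the Benjamini-Hochberg method, was under 0.05. Where no array of the lower group was above the limit for a gene, its change is given as a bound, "at least", of the bright group over that limit. Where it was above the limit on only some arrays of the lower group, their number is given. Levels were not compared between genes. Where a gene had several kept probes the brightest was used. Of 88 such genes named by the rule that passed, 27 had no other probe past the threshold. Only some of these 27 are pointed out below.

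Between 4 h and 24 h, 45 of 61 measured genes of DNA replication and 66 of 99 of mitosis rose. Falls were seen in 6 of 14 chemokines, 12 of 33 cytokines, 9 of 23 genes of NF-kB and its regulators and 28 of 53 of ribosome biogenesis, none of which held a rise, and the other members of these lists did not pass. Of 8985 genes tested 1606 passed limma's test (17.9%), with 871 higher at 24 h (9.69%) and 735 lower (8.18%). At least 2-fold changes were found in 283 of the genes that rose and 188 of those that fell. For 1234 of the 1606 genes the arrays of the groups did not overlap, which was so for 26.9% of all genes tested. The median log2 change of all genes was 0.0029. Median scaling in place of quantile normalisation moved it to 0.14 and the share of calls that were higher from 54.2% to 83.2% (1662 higher and 335 lower), and the changes below are those under quantile normalisation. Without the replicate block 491 genes passed (275 higher, 216 lower). The count rests on culture 8: without it 7 genes passed (5 higher, 2 lower), with no member of any pathway list among them but Il18r1, against 621 without culture 6 (428 higher, 193 lower) and 1631 without culture 9, of which 1132 were among the 1606. In a fit to the 6 arrays alone 0 genes passed, with a lowest adjusted p of 0.0532 and 2326 genes at an unadjusted p under 0.05.

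**Figure D1:**
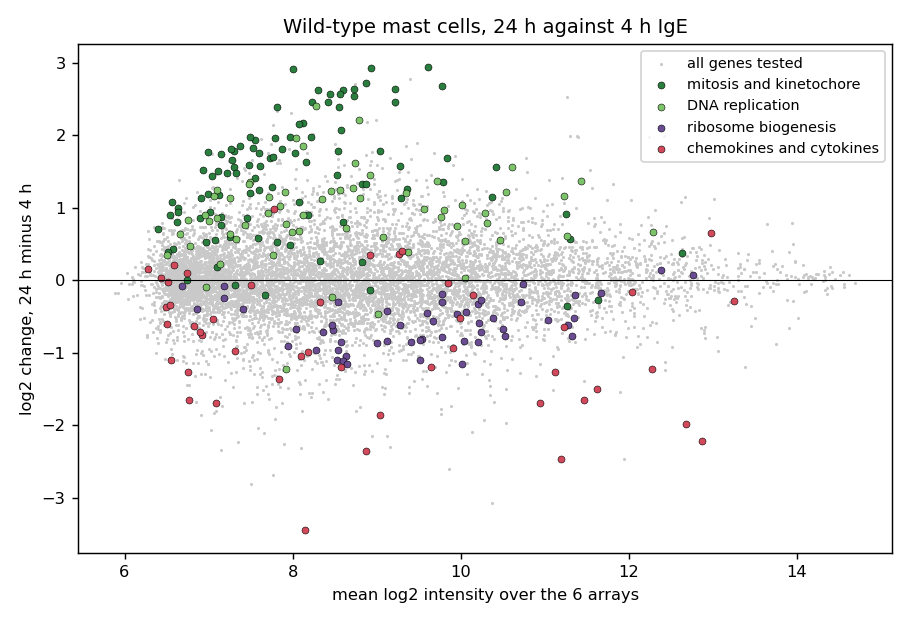
Log2 change from 4 h to 24 h in wild-type cells (vertical axis) against the mean log2 intensity over the 6 arrays (horizontal axis), 1 point per gene. Grey points are all 8985 genes tested, and coloured points are the members of 4 groups of lists. The mitosis genes (dark green) lie almost all above 0, and the ribosome biogenesis genes (purple) almost all below it.

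The cultures differed in what they did between 4 h and 24 h. Changes of at least 2-fold were seen in 970 genes in culture 6, in 1061 in culture 8 and in 444 in culture 9, where 310 were higher and 134 lower. Across the 8985 genes, which are not independent replicates, the change in culture 8 had a Pearson correlation of 0.724 with that in culture 6 and of 0.563 with that in culture 9, and cultures 6 and 9 had 0.276. Each wild-type culture shared a slide with a knockout culture, and each wild-type culture had its highest correlation with that one: 0.861 for wild-type 6 and knockout 3, 0.804 for wild-type 8 and knockout 4, and 0.619 for wild-type 9 and knockout 6. They share a slide and no array. Wild-type 6 also had 0.741 with knockout 4 on another slide, above the 0.619 of the last pair. Culture and slide cannot be told apart in the wild type, and the value in each culture is also the value within each slide.

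The mitosis genes held the largest rises. Of 99 measured genes of mitosis and the kinetochore, 66 rose and 0 fell, or 66.7% against 9.69% of all genes. The median log2 change of the 99 was 1.47 against 0.0029 for all genes, with 0.75, 1.96 and 1.57 in cultures 6, 8 and 9. No list of genes was given a test of its own. Against untreated cells of the same cultures the median of the list was −0.48 at 4 h and 0.89 at 24 h, 2 comparisons that share the untreated arrays with each other and an array group with the comparison here. More cells in division and more RNA per dividing cell cannot be told apart in such bulk samples. The number of mitosis genes that rose was 37 without culture 9, 0 without culture 8 and 21 without the replicate block.

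Top2a encodes the topoisomerase that untangles sister chromatids. Its levels at 4 h were 7.73, 6.28 and 7.48 in cultures 6, 8 and 9, with 2 of 3 arrays above the limit, and at 24 h they were 9.16, 9.65 and 10.39. Every 24 h array was above every 4 h array, and the smallest step was in culture 6. The change was 2.57 ± 0.49 (adjusted p = 0.00779). Esco2, whose product acetylates cohesin to hold sister chromatids together, had 6.37, 6.18 and 7.11 at 4 h, with 1 of 3 arrays above the limit, and 8.60, 9.75 and 10.02 at 24 h. This was a rise of 2.90 ± 0.43 (adjusted p = 0.00439), with no overlap. Prc1, which bundles the microtubules of the spindle midzone, had 8.31, 6.58 and 9.52 at 4 h (2 of 3 above the limit) and 10.26, 11.18 and 11.79 at 24 h. It showed the largest rise of all genes named by the rule, 2.94 ± 0.73 (adjusted p = 0.0196), and the step in culture 8 was more than that in either of the others.

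The mitosis genes with the largest changes, named by size, have different tasks, while the list as a whole ran from −0.36 to 2.94. The chromosomal passenger complex was represented by Birc5, which encodes survivin (2.72 ± 0.72, 2 of 3 arrays at 4 h above the limit), and Cdca8, which encodes borealin (2.64 ± 0.53). Kinetochore and spindle checkpoint genes included Spc25 of the NDC80 complex (2.62 ± 0.53, 2 of 3), Spag5 (2.62 ± 0.55, 2 of 3) and Bub1b (2.57 ± 0.54, 2 of 3), which encodes the checkpoint kinase BUBR1. Spindle genes included Nusap1 (2.67 ± 0.62), the kinesin gene Kif22 (2.63 ± 0.57, 2 of 3) and Tpx2 (2.46 ± 0.51, 2 of 3), whose product activates Aurora A. Anln, which encodes the cytokinesis protein anillin, rose by 2.45 ± 0.61 (2 of 3). The mitotic kinase gene Pbk rose by 2.92 ± 0.67 (2 of 3), Gtse1 by 2.55 ± 0.43 (2 of 3) and Cdca3, which acts at mitotic entry, by 2.46 ± 0.70. In all 12 of these genes, which were picked for large changes, the 24 h arrays were above the 4 h arrays. The same held for 71 of the 99 members and for 13.4% of all genes tested.

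Of 61 measured DNA replication genes 45 rose, or 73.8%, and 1 fell, with a median change of 0.90 (0.56, 1.37 and 0.61 in cultures 6, 8 and 9). Every 24 h array was above every 4 h array for 13 of the 61 members and for 13.4% of all genes tested. The reverse held for 2 members. The number that rose was 7 without the replicate block and 0 without culture 8. Mcm10, whose product is needed to start replication forks, had 7.75, 6.73 and 8.59 at 4 h and 9.02, 10.26 and 10.42 at 24 h. It rose by 2.21 ± 0.35 (adjusted p = 0.0049), and the groups did not overlap although culture 6 at 24 h was close to culture 9 at 4 h. Cdc6, whose product loads the replicative helicase, had 6.94, 6.69 and 7.96 at 4 h (2 of 3 above the limit) and 8.23, 9.61 and 9.31 at 24 h, and it rose by 1.85 ± 0.27 (adjusted p = 0.00415). Clspn of the replication checkpoint rose by 2.40 ± 0.38 (2 of 3) and the histone chaperone gene Asf1b by 1.97 ± 0.40 (2 of 3). Lig1, the gene of the ligase that joins Okazaki fragments, rose by 1.61 ± 0.39, Uhrf1, which brings Dnmt1 to replicated DNA, by 1.56 ± 0.27, the kinase gene Cdc7 by 1.45 ± 0.29, and Pold1, the gene of the catalytic subunit of DNA polymerase delta, by 1.37 ± 0.24. In these last 4 genes culture 9 at 4 h was already above culture 6 at 24 h, so that their groups overlapped. The member that fell was Orc4 of the origin recognition complex, with 8.59, 8.60 and 8.40 at 4 h and 7.22, 7.39 and 7.33 at 24 h (−1.22 ± 0.16, adjusted p = 0.00311). It was named after its values were seen.

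The stretch of 250 bases before the start site was read for motifs, on both strands, for the genes found in the RefSeq promoter table. The sequences below are of genes that rose, shown because the motifs of the cell cycle stand in them. They are from build GRCm38.p6, 5′ to 3′ in the direction of the gene, and capitals mark the CHR (TTTGAA or TTCAAA) and CCAAT boxes (CCAAT or ATTGG) in Top2a and Asf1b and an E2F motif (GCGGGAA or TTCCCGC) in Cdc6. Top2a lies at chr11:99024190-99024439 on the minus strand, Asf1b at chr8:83955444-83955693 on the plus strand and Cdc6 at chr11:98907901-98908150 on the plus strand.
Top2a: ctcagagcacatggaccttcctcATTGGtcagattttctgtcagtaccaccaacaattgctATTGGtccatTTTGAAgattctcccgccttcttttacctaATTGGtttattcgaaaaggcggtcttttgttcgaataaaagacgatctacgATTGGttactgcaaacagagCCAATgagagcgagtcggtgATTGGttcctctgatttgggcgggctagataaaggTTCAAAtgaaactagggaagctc
Asf1b: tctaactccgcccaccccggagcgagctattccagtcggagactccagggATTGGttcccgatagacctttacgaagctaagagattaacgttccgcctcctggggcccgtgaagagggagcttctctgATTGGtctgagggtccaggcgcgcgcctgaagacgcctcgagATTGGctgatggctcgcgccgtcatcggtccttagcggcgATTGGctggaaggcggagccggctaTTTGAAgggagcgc
Cdc6: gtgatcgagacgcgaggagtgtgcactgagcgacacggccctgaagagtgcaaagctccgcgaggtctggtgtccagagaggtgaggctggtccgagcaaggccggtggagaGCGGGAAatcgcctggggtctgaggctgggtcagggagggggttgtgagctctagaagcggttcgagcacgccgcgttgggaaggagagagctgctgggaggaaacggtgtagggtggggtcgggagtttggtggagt
The Top2a stretch holds 2 CHR motifs and 6 CCAAT boxes, with the nearer CHR from 23 to 18 bases before the start, and that of Asf1b holds 1 CHR, from 14 to 9 bases before the start, and 4 CCAAT boxes. A CHR stood in 34.6% of the 81 mitosis genes found there and a CCAAT box in 64.2%, against 10.6% and 36.9% of 7367 tested genes and 16.3% and 34.5% of all 27025 promoters. Of the 724 genes that rose and were found there, 12.8% had a CHR and 46.3% a CCAAT box. The E2F letters stood in 22.9% of 48 DNA replication genes, in 6.17% of the mitosis genes, in 7.07% of tested genes and in 3.84% of all promoters. These shares describe letters in a window of this length and say nothing of binding, and they were given no test.

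Of 29 measured genes that repair DNA at replication forks 17 rose (58.6%) and 0 fell, with a median of 0.70 and 0.43, 0.96 and 0.60 in cultures 6, 8 and 9. The homologous recombination motor genes Rad54b (2.30 ± 0.36, 1 of 3 arrays at 4 h above the limit) and Rad54l (1.92 ± 0.30, 1 of 3) rose, as did Fignl1 (1.88 ± 0.32) and Rad51c (1.37 ± 0.24, 1 of 3). The helicase gene Brip1 was at least 2.29-fold higher (adjusted p = 0.00478), and Rad51ap1 at least 1.98-fold (adjusted p = 0.0165). Blm, the gene of the Bloom syndrome helicase, rose by 1.25 ± 0.24 and Parp1, which marks DNA breaks with poly-ADP-ribose, by 1.16 ± 0.30.

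Nucleotide synthesis genes rose in part. Of 40 measured members 7 rose (17.5%) and 0 fell, with a median of 0.20. The thymidine kinase gene Tk1 had 6.66, 6.10 and 7.17 at 4 h (1 of 3 above the limit) and 7.76, 9.18 and 10.01 at 24 h, a rise of 2.34 ± 0.56 (adjusted p = 0.0175) with no overlap. The ribonucleotide reductase genes Rrm2 (1.80 ± 0.50, 2 of 3) and Rrm1 (1.49 ± 0.35), the thymidylate synthase gene Tyms (1.14 ± 0.31), Dtymk (0.91 ± 0.19), which makes thymidine diphosphate, and Nudt1 (0.73 ± 0.18), which clears oxidised nucleotides, rose as well. The deoxycytidine kinase gene Dck was at least 1.59-fold higher.

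The regulators of the cycle were mixed. Of 41 measured cyclins, kinase inhibitors and E2F factors 9 rose (22%), 3 fell (7.32%, against 8.18% of all genes) and 29 did not pass, with a median of 0.42. Rbl1, which encodes the pocket protein p107, rose by 2.01 ± 0.31 (2 of 3), while its other probes had 0.27 and 0.39 and did not pass. Cyclin E2 (Ccne2) rose by 1.61 ± 0.38 (2 of 3), E2f1, the gene of a factor that drives entry into S phase, by 1.59 ± 0.35 and Cdk2, the gene of the kinase that cyclin E binds, by 1.05 ± 0.17. E2f2 was at least 2.22-fold higher. The kinase inhibitor gene Cdkn2d rose by 1.20 ± 0.38. Ccnd2, the gene of cyclin D2, had 11.79, 12.15 and 10.95 at 4 h and 11.23, 10.64 and 10.20 at 24 h. It fell by 0.94 on the log2 scale in groups that overlapped (adjusted p = 0.0159), a second probe fell by 0.79 and the last stood at 0.20. The antiproliferative gene Btg1 fell by 0.98, and the survival kinase gene Pim3, named after its values were seen, by 0.87.

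Replication-dependent histone genes rose in 7 of 46 cases (15.2%), with 0 falls. Their median was 0.57, from −0.10 in culture 6 against 0.90 in culture 8 and 1.11 in culture 9. H2ac8 had 7.58, 6.29 and 6.88 at 4 h (2 of 3 above the limit) and 8.30, 8.55 and 9.10 at 24 h, a rise of 1.73 ± 0.32 (adjusted p = 0.00755). H3c7 rose by 1.67 ± 0.30 and H3c6 by 1.44 ± 0.30. Histone genes of a class are near copies of each other, and a probe may read several of them, so that the members that rose are uncertain. Without culture 6 the list had 15 rises and 2 falls.

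Of 14 measured chemokines 6 fell (42.9%, against 8.18% of all genes) and 0 rose, and all 14 changes were below 0, with a median of −0.84 (−0.75, −1.34 and −0.25 in cultures 6, 8 and 9). Of 33 measured cytokines and growth factors 12 fell (36.4%) and 0 rose, with a median of −0.60 (−0.71, −0.87 and −0.21). Every 24 h array was below every 4 h array for 4 of the 14 chemokines and 11 of the 33 cytokines. The same held for 13.5% of all genes tested, and the reverse for 0 members of either list. Without culture 8 none of either list passed, and without the replicate block 2 chemokines and 3 cytokines fell. Against untreated cells the medians were 1.48 at 4 h and 0.29 at 24 h for chemokines and 0.89 and 0.19 for cytokines, from comparisons that share arrays.

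Ccl4, which draws T cells and monocytes, had 10.82, 10.42 and 9.90 in untreated cultures 6, 8 and 9. At 4 h the levels were 14.58, 14.39 and 12.97, and at 24 h they were 12.40, 11.27 and 11.63. All 24 h arrays were below all 4 h arrays and above all untreated ones, and Ccl4 fell by 2.21 ± 0.30 on the log2 scale (adjusted p = 0.00363). Ccl3, which shares receptors with Ccl4, had 14.63, 14.40 and 11.97 at 4 h and 12.59, 10.94 and 11.53 at 24 h. Culture 9 was lowest at 4 h, below culture 6 at 24 h, and the fall of 1.98 ± 0.55 (adjusted p = 0.0303) came with overlapping groups. Ccl1, which attracts Th2 cells, had 13.75, 13.80 and 9.72 at 4 h and 10.91, 9.49 and 9.49 at 24 h, with a fall of 2.46 ± 0.73 in overlapping groups (adjusted p = 0.037). The step of Ccl1 was large in cultures 6 and 8 and small in culture 9. Ccl2, the main monocyte attractant, was more even, with 13.03, 12.73 and 12.91 at 4 h, 12.18, 11.57 and 11.26 at 24 h and a fall of 1.22 ± 0.18 (adjusted p = 0.00439) without overlap. Ccl17 fell by 0.97 (2 of 3 arrays at 24 h above the limit) and the eosinophil attractant Ccl24 by 0.71 (1 of 3).

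The granulocyte-macrophage growth factor gene Csf2 showed the largest fall and the widest spread. It had 13.02, 9.84 and 6.75 at 4 h in cultures 6, 8 and 9 and 7.10, 6.27 and 5.93 at 24 h, when 1 of 3 arrays was above the limit. The groups overlapped, and Csf2 fell by 3.44 ± 0.95 (adjusted p = 0.0291). Il13, a type 2 cytokine that drives mucus and IgE responses, had 10.71, 10.11 and 9.33 at 4 h and 8.24, 7.45 and 7.40 at 24 h. It fell by 2.36 ± 0.37 (adjusted p = 0.0049), in all 3 cultures and without overlap. Il6, an inflammatory cytokine, had 13.01, 12.09 and 11.76 at 4 h and 11.35, 10.61 and 9.96 at 24 h, and it fell by 1.65 ± 0.23 (adjusted p = 0.00363). Its levels in untreated cultures, 11.25, 10.90 and 10.66, lay in the range of those at 24 h. Il4, the cytokine that sets Th2 differentiation, had 13.26, 12.42 and 11.43 at 4 h and 11.25, 10.78 and 10.58 at 24 h, with a fall of 1.50 ± 0.31 (adjusted p = 0.0105).

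Other secreted factors that fell were the alarmin gene Il1a (−1.85 ± 0.30, overlapping), the platelet-derived growth factor gene Pdgfa (−1.70 ± 0.29), the T cell costimulator gene Tnfsf14 (−1.26 ± 0.34) and the macrophage growth factor gene Csf1 (−1.19 ± 0.33, overlapping). Tnf had 10.24, 8.59 and 8.69 at 4 h and 7.98, 7.72 and 8.23 at 24 h and did not pass (−1.19 ± 0.51, adjusted p = 0.118). Ccl7, a monocyte attractant, had 13.65, 13.51 and 13.01 at 4 h and 13.58, 12.74 and 13.01 at 24 h (−0.28 ± 0.34, adjusted p = 0.606). Both were named after their values were seen.

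**Figure D2:**
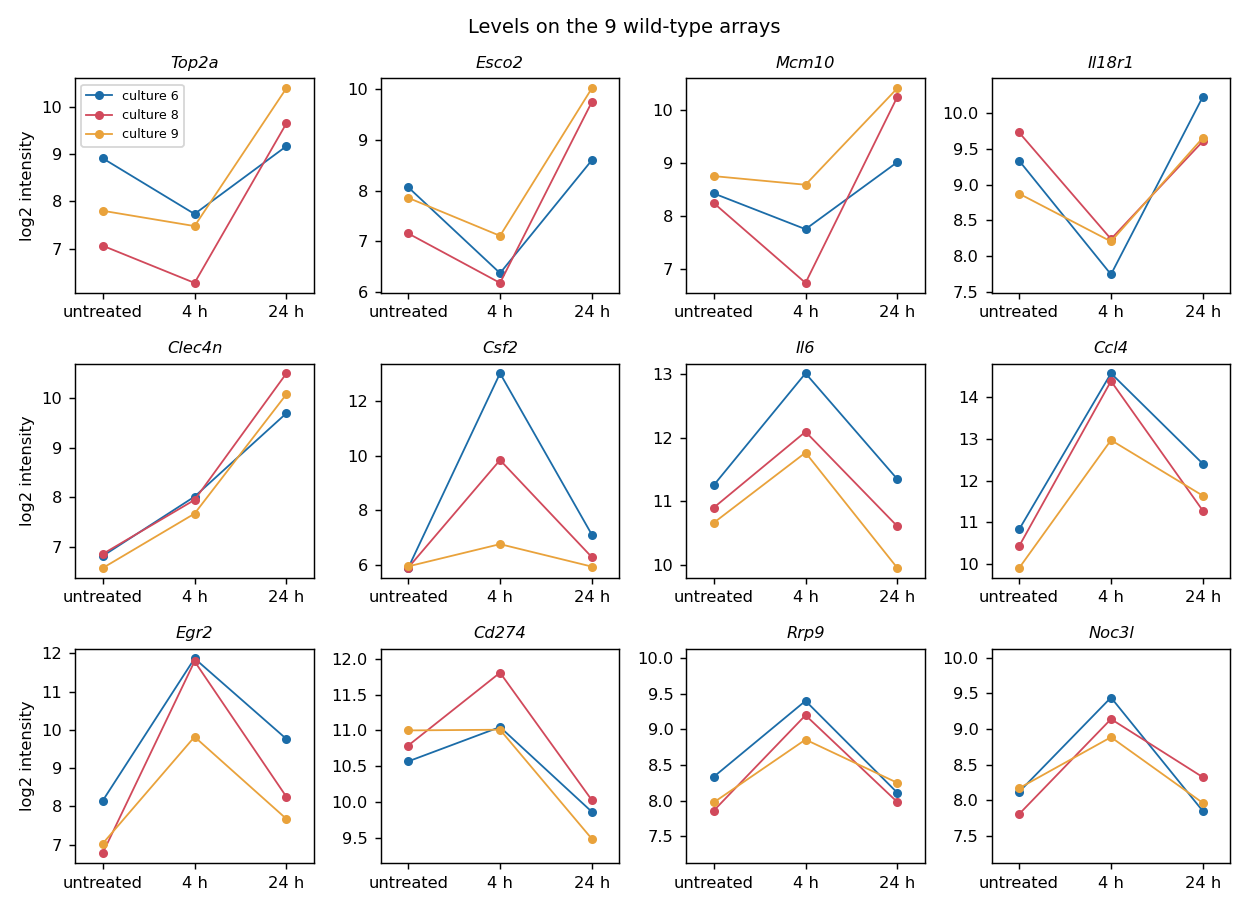
Log2 intensity of 12 genes (vertical axes) in untreated cells and at 4 h and 24 h (horizontal axes), with 1 point per array and a line for each of wild-type cultures 6, 8 and 9. Csf2 at 4 h ranged from 6.75 in culture 9 to 13.02 in culture 6, while Il6, Clec4n and Top2a moved the same way in all 3 cultures.

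Of 25 measured immediate early transcription factors 9 fell (36%) and 1 rose, with a median of −0.55. Egr2, a zinc finger factor induced by receptor signals, had 11.87, 11.79 and 9.82 at 4 h and 9.76, 8.25 and 7.67 at 24 h, and it fell by 2.60 ± 0.38 (adjusted p = 0.00439) without overlap. Members of AP-1 fell by less, Fosl2 by 1.17 ± 0.18, Jund by 0.71 ± 0.22 (2 of 3 arrays at 24 h above the limit) and Junb by 0.66 ± 0.19. Mafk, which encodes a small Maf protein, fell by 1.11 ± 0.21, and Nab2, a corepressor of the Egr factors, by 0.77 ± 0.19. Irf4 was at least 1.12-fold lower. The member that rose was Ier2, with 6.25, 6.36 and 7.40 at 4 h (1 of 3 above the limit) and 9.03, 7.55 and 8.01 at 24 h (1.52 ± 0.37, adjusted p = 0.0183). Without the replicate block 3 members fell.

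Among 23 measured NF-kB subunits, inhibitors and regulators 9 fell (39.1%) and 0 rose, with a median of −0.25. Both inhibitors and subunits were among them. Nfkbia, the gene of the inhibitor that holds NF-kB in the cytoplasm, had 8.90, 8.72 and 7.77 at 4 h and 7.76, 7.20 and 7.39 at 24 h. It fell by 1.01 ± 0.26 (adjusted p = 0.0232), with culture 9 at 4 h just above culture 6 at 24 h. Nfkbiz, which encodes a nuclear cofactor of NF-kB, had 11.26, 9.95 and 9.29 at 4 h and 9.09, 8.54 and 8.20 at 24 h, and it fell by 1.55 ± 0.28 (adjusted p = 0.00676). Tnfaip3, whose product A20 edits ubiquitin to stop the signal, fell by 1.27 ± 0.27, Nfkbib fell by 0.88 ± 0.16 and Nfkbid fell by 1.26 ± 0.30. Of the subunit genes, Rel fell by 0.78 ± 0.18 (2 of 3) and Nfkb2 by 0.67 ± 0.21, and Relb was at least 1.63-fold lower. Malt1, named after its values were seen, fell by 0.61 on the log2 scale. The count was 3 without the replicate block and 4 without culture 6.

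Promoters of 2 genes that fell, Il6 and Nfkbia, are shown for the kappaB letters (GGG, any 2 bases and TTTCC, or the same on the other strand) that stand close to their start sites, with AP-1 letters (TGANTCA) also in capitals in Il6. Il6 lies at chr5:30012864-30013113 on the plus strand and Nfkbia at chr12:55492648-55492897 on the minus strand of GRCm38.p6, from RefSeq as above.
Il6: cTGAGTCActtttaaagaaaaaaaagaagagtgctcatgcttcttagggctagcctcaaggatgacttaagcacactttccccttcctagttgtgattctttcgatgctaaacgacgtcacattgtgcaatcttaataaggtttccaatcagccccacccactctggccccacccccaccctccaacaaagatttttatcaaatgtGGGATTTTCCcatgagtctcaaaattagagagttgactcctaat
Nfkbia: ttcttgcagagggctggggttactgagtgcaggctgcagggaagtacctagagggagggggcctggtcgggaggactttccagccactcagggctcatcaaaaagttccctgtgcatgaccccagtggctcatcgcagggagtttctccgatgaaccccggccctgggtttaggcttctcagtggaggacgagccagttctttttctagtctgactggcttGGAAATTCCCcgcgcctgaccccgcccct
The kappaB letters lie 44 to 35 bases before the start of Il6 and 29 to 20 bases before that of Nfkbia. They were found in 27.8% of 18 genes of the NF-kB list, in 1.41% of 7367 tested genes and in 1.40% of all 27025 promoters. In Il6 they overlap the letters TTTTCC, which are also read as an NFAT motif and stood in 18.4% of tested genes. The AP-1 letters stood in 23.1% of 26 cytokine genes against 4.24% of tested genes and 6.87% of all promoters. Of the 599 genes that fell and had a RefSeq promoter, 4.34% had the AP-1 letters, 2.17% the kappaB letters and 19.2% TTTTCC, near the shares of tested genes. The kappaB letters stood in 12.5% of 8 chemokine genes and 7.69% of the 26 cytokine genes. As above, no test was made.

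Of 12 measured MAP kinase phosphatases and Sprouty genes 1 fell, Dusp5, which dephosphorylates ERK in the nucleus. It had 11.47, 10.76 and 8.37 at 4 h and 8.74, 7.73 and 7.68 at 24 h (−2.15 ± 0.43, adjusted p = 0.00967), with overlapping groups. Of 13 measured costimulatory molecules and PD-1 ligands 5 fell (38.5%) and 0 rose, with a median of −0.75. Cd274, the gene of PD-L1, had 11.05, 11.81 and 11.01 at 4 h and 9.86, 10.02 and 9.48 at 24 h, and it fell by 1.50 ± 0.21 (adjusted p = 0.00399). In untreated cells the lowest level of Cd274, 10.57 in culture 6, was above every 24 h array. The second PD-1 ligand gene, Pdcd1lg2, fell by 1.24 ± 0.23, Havcr2, the gene of the inhibitory receptor TIM-3, by 1.52 ± 0.35, Tnfrsf4, the gene of OX40, by 1.14 ± 0.31 and Cd244a by 0.75 ± 0.20. Tnfrsf9, the gene of 4-1BB, did not pass (−1.84 ± 0.61, adjusted p = 0.0553).

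Of 53 measured genes of ribosome biogenesis 28 fell (52.8%) and 0 rose, 51 of the 53 changes were below 0, and the median was −0.62 (−0.87, −0.49 and −0.39 in cultures 6, 8 and 9). The median was between −0.71 and −0.44 over all settings run, the latter under median scaling, where 13 fell. Without culture 6 the number was 4, without culture 8 it was 0 and without the replicate block 15. Against untreated cells the median was 0.67 at 4 h and 0.04 at 24 h, from comparisons that share arrays.

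Rrp9, which encodes a protein of the U3 particle that trims ribosomal RNA, had 9.40, 9.20 and 8.86 at 4 h and 8.11, 7.98 and 8.25 at 24 h, with 8.33, 7.86 and 7.98 in untreated cells. It fell by 1.04 ± 0.15 (adjusted p = 0.00399), and the 24 h arrays lay where the untreated ones did. Noc3l, a nucleolar assembly factor gene, had 9.44, 9.14 and 8.88 at 4 h and 7.85, 8.32 and 7.96 at 24 h and fell by 1.11 ± 0.20 (adjusted p = 0.00676). Further falls were those of Grwd1 (−1.16 ± 0.27), Rrp12 (−1.15 ± 0.26), Rrp15 (−1.10 ± 0.24), Ftsj3 (−1.10 ± 0.19), Pwp1 (−0.96 ± 0.17) and Polr1b (−0.96 ± 0.26), the gene of a subunit of RNA polymerase I. For all 8, which were picked for large changes, the groups did not overlap. The same held, with 24 h lower, for 38 of the 53 members and for 13.5% of all genes tested.

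Of 18 measured aminoacyl-tRNA synthetase genes 3 fell (16.7%) and 0 rose: Rars by 0.68 ± 0.17, Tars by 0.57 ± 0.17 and Wars by 0.47 ± 0.13 on the log2 scale. No other kept probe of these 3 genes passed, and those of Wars had −0.28 to −0.20. Of 32 cytosolic chaperone genes 6 fell (18.8%) and 0 rose, among them Hsph1 (−0.89 ± 0.21), the HSP70 partner gene Dnaja2 (−0.85 ± 0.11), Dnajb6 (−0.80 ± 0.20) and Cct7 (−0.66 ± 0.13), a subunit gene of the chaperonin that folds actin and tubulin. Another probe of Dnaja2 had −0.37 and did not pass. Of 23 nutrient transporters 6 fell (26.1%) and 1 rose. Slc1a5, the gene of a glutamine transporter, fell by 0.93 ± 0.22, Slc20a1, a phosphate transporter gene, by 0.70 ± 0.17 and Slc3a2, the heavy chain gene of amino acid exchangers, by 0.58 ± 0.16, while the mitochondrial citrate carrier gene Slc25a1 rose by 1.16 ± 0.19. Under median scaling 0 synthetases and 2 transporters fell.

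Of 38 genes that respond to unfolded proteins or a lack of amino acids 4 rose (10.5%, near the 9.69% of all genes) and 1 fell. Sdf2l1, a chaperone partner gene of the endoplasmic reticulum, had 8.92, 8.87 and 7.85 at 4 h and 9.26, 10.17 and 10.37 at 24 h (1.38 ± 0.39, adjusted p = 0.0326), with no overlap. Pdia4 (0.72 ± 0.19) and Hsp90b1 (0.57 ± 0.18), which fold secreted proteins, and the mTORC1 inhibitor gene Ddit4 (1.37 ± 0.39) rose too, and Atf6 was at least 1.13-fold lower. Of 24 cholesterol genes 3 rose (12.5%) and 1 fell. These were the synthesis genes Dhcr7 (0.69 ± 0.15, 1 of 3 at 4 h above the limit), Ebp (0.53 ± 0.11) and Tm7sf2 (0.45 ± 0.13, 2 of 3), and Scap, the gene of the sterol sensor that escorts SREBP, which fell by 0.60 ± 0.13. Another probe of Scap had −0.10 and did not pass.

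Surface receptors moved in both directions. Of 31 measured Fc receptors and mast cell receptors 4 rose (12.9%), 2 fell (6.45%) and 25 did not pass, with a median of 0.01. The IgG receptor genes rose together: Fcgr2b, which carries an inhibitory motif, had 7.62, 7.64 and 8.20 at 4 h and 9.58, 9.58 and 9.07 at 24 h (1.59 ± 0.29, adjusted p = 0.00723). Fcgr3 had 8.49, 8.31 and 8.88 at 4 h and 10.12, 9.76 and 9.997 at 24 h (1.40 ± 0.27, adjusted p = 0.00795). Neither overlapped, and untreated cells had 8.92, 10.22 and 9.35 for Fcgr2b and 9.79, 10.97 and 10.57 for Fcgr3. Il18r1, a receptor chain gene for interleukin 18, had 7.74, 8.24 and 8.20 at 4 h and 10.23, 9.61 and 9.66 at 24 h, and it rose by 1.77 ± 0.23 (adjusted p = 0.00361). It was among the 7 genes that passed without culture 8 (1.97, adjusted p = 0.0389). The ATP receptor gene P2rx7 rose by 0.86 ± 0.21. C5ar1, the gene of the receptor for complement C5a, was at least 2.43-fold lower, and Il10ra fell by 1.29 ± 0.26. Fcer1a, which encodes the IgE-binding chain, had 14.13, 14.42 and 14.51 at 4 h and 14.37, 14.55 and 14.50 at 24 h (0.12 ± 0.12, adjusted p = 0.535), and Kit, the stem cell factor receptor gene, had 12.74, 13.63 and 13.51 and then 13.16, 13.47 and 13.29 (0.01 ± 0.26, adjusted p = 0.991). These last 2 genes were named after their values were seen.

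Of 7 measured C-type lectin receptors 2 rose (28.6%) and 0 fell. Clec4n, the gene of the fungal receptor dectin-2, had 6.82, 6.86 and 6.58 in untreated cultures, 8.02, 7.95 and 7.67 at 4 h and 9.70, 10.50 and 10.08 at 24 h. The 3 sets did not overlap, and the rise from 4 h was 2.21 ± 0.30 (adjusted p = 0.00363). Clec10a, a galactose-binding lectin gene, had 8.24, 7.60 and 7.64 at 4 h and 9.63, 8.94 and 8.97 at 24 h (1.36 ± 0.21, adjusted p = 0.0049).

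In the chain from receptor to calcium, 5 of 28 measured genes of proximal Fc epsilon RI signalling fell (17.9%) and 0 rose. Without culture 6 the number was 1. The list median, −0.04, was near that of all genes and stood at 0.04 under median scaling. Lat, the adaptor that gathers phospholipase C gamma, had 12.55, 13.08 and 13.27 at 4 h and 12.36, 11.93 and 11.86 at 24 h, a fall of 0.92 ± 0.19 (adjusted p = 0.0101). The kinase genes Fyn (−1.47 ± 0.46, overlapping) and Tec (−1.29 ± 0.29) and the exchange factor gene Vav2 (−1.36 ± 0.35) fell, and the adaptor gene Gab2 was at least 1.14-fold lower. Of 16 genes of calcineurin, NFAT and calcium entry 3 rose (18.8%) and 2 fell (12.5%): the calcineurin chain gene Ppp3cb rose by 0.97 ± 0.17 while Ppp3ca fell by 0.77 ± 0.24, and the calcium sensor gene Stim1 rose by 0.49 ± 0.16 while Stim2 fell by 0.74 ± 0.20. Rcan3, a calcineurin regulator gene, rose by 0.77 ± 0.20. The falls of Ppp3ca and Stim2 did not pass under median scaling (adjusted p = 0.116 and 0.0698), and without culture 6 or with the 9 wild-type arrays alone 0 members fell. Of 24 SOCS and inhibitory genes 2 rose (8.33%, against 9.69% of all genes) and 3 fell (12.5%, against 8.18%). Cish, a feedback inhibitor gene of STAT5 signals, had 13.37, 13.27 and 12.49 at 4 h and 12.01, 11.80 and 11.61 at 24 h (−1.24 ± 0.16, adjusted p = 0.00311), and the inhibitory receptor gene Lilrb4a fell by 0.65 ± 0.11 while Lair1 rose by 0.78 ± 0.20.

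Of 19 measured granule protease and proteoglycan genes 1 rose (5.26%) and 2 fell (10.5%), and all 3 encode sulphotransferases: Chst11 fell by 2.15 ± 0.47, Chst15 by 0.83 ± 0.16 and Chst12 was at least 1.50-fold higher. The chymase gene Mcpt4 had 8.72, 7.32 and 7.33 at 4 h and 11.93, 8.48 and 9.53 at 24 h, higher at 24 h in each culture, with overlapping groups, and did not pass (2.19 ± 0.79, adjusted p = 0.0732). Cpa3, the carboxypeptidase gene, named after its values were seen, had 14.44, 14.48 and 14.31 and then 14.41, 14.40 and 14.09 (−0.11 ± 0.12, adjusted p = 0.565). Of 11 genes of mediator synthesis 2 rose and 2 fell (18.2% each). Hdc, which makes histamine, had 14.36, 14.45 and 13.12 at 4 h and 13.77, 12.13 and 12.45 at 24 h and fell by 1.19 ± 0.37 in overlapping groups (adjusted p = 0.0444). Gch1, whose product starts the synthesis of tetrahydrobiopterin, fell by 0.87 ± 0.23, while the leukotriene C4 synthase gene Ltc4s rose by 0.88 ± 0.16 and the prostaglandin D synthase gene Hpgds by 0.90 ± 0.25. Among 31 exocytosis genes 2 rose and 2 fell, 6.45% each against 9.69% and 8.18% of all genes. The granule GTPase gene Rab3d rose by 1.18 ± 0.24 and the priming factor gene Unc13d by 1.0 ± 0.21. Stx6 fell by 1.18 ± 0.25 and Napa by 0.43 ± 0.13. Without culture 6 no exocytosis gene passed, and 1 mediator gene did, upwards. Of 17 lineage transcription factors Cebpd rose by 1.08 ± 0.20, and Mitf fell by 0.63 ± 0.19 and Tal1 by 0.58 ± 0.17, falls that did not pass under median scaling or without culture 6.

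Of 46 interferon-stimulated and antigen presentation genes 8 rose (17.4%) and 3 fell (6.52%), with a median of 0.21. Under median scaling 17 rose and 1 fell, and without culture 6 the numbers were 4 and 0. Irf1, a transcription factor of the interferon response, had 7.48, 8.53 and 8.86 at 4 h and 9.77, 9.98 and 9.74 at 24 h, and it rose by 1.54 ± 0.39 (adjusted p = 0.0199), while its 3 other probes had 0.93, 0.42 and 0.16. Subunit genes of the immunoproteasome moved in opposite directions, Psmb9 upwards by 1.31 ± 0.23 and Psmb10 downwards by 1.0 ± 0.21, and neither overlapped. Ifi47, an interferon-induced GTPase gene, rose by 1.13 ± 0.21 and Irf5 fell by 0.79 ± 0.20. Of 40 lysosome genes 7 rose (17.5%) and 0 fell, with a median of 0.17 (0.42, 0.08 and 0.00 in cultures 6, 8 and 9). Smpd1, the acid sphingomyelinase gene, had 8.72, 8.89 and 9.44 at 4 h and 10.28, 10.04 and 10.31 at 24 h (1.19 ± 0.25, adjusted p = 0.0115). Arsa (1.03 ± 0.25) and Naglu (0.87 ± 0.21), which break down sulphated lipids and heparan sulphate, the acid lipase gene Lipa (0.83 ± 0.24) and Grn (0.99 ± 0.19), the gene of progranulin, rose too. Without culture 6 no lysosome gene passed.

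In energy metabolism 4 of 28 glycolysis and hypoxia genes rose (14.3%) and 2 fell (7.14%), with a median of 0.37 that was −0.05 in culture 6, 0.08 in culture 8 and 0.67 in culture 9. Those that rose were the phosphofructokinase gene Pfkl (1.10 ± 0.29), the pyruvate dehydrogenase kinase genes Pdk3 (0.77 ± 0.14) and Pdk1 (0.75 ± 0.24, 1 of 3) and the lactate dehydrogenase gene Ldha (0.59 ± 0.13). Another probe of Pfkl had 0.21 and did not pass. Eno2 fell by 1.24 ± 0.20 and the hypoxia-induced gene Ndrg1 by 1.96 ± 0.55. Of 67 genes of oxidative phosphorylation 7 rose (10.4%, near the 9.69% of all genes) and 1 fell, with changes of 0.67 or less, as in the complex I genes Ndufa3 (0.67 ± 0.16), Ndufc1 (0.57 ± 0.13) and Ndufa6 (0.54 ± 0.15). The mitochondrial ribosome had 8 rises (11.1%, also near the 9.69% of all genes) and 2 falls among 72 genes, with a median of 0.04. Its largest rise was that of Mrpl42 (0.95 ± 0.19), and without culture 6 it had 2 rises and 0 falls. Of 40 proteasome genes 1 rose (2.5%) and 2 fell (5%), against 9.69% and 8.18% of all genes. Among 33 genes of oxidant defence 4 rose (12.1%) and 5 fell (15.2%): the glutathione transferase gene Gstt3 rose by 1.64 ± 0.24, Gpx4 by 0.55 ± 0.15 and Prdx2 by 0.56 ± 0.13, while the thioredoxin reductase gene Txnrd1 fell by 0.99 ± 0.31 and Gclc, which limits glutathione synthesis, by 0.75 ± 0.14 (2 of 3). The other probes of Prdx2 had 0.04 and 0.17 and did not pass.

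Of 30 genes of the BCL2 family and of death receptors 4 rose (13.3%) and 3 fell. Under median scaling 7 rose and 0 fell, and without culture 6 the numbers were 1 and 0. Bcl2l11, the gene of the killer protein BIM, had 8.25, 9.05 and 7.50 at 4 h and 7.21, 6.88 and 6.90 at 24 h, and it fell by 1.27 ± 0.36 (adjusted p = 0.0318). Cflar, which blocks caspase 8, fell by 0.87 ± 0.23, and Casp8 itself (0.66 ± 0.14), its adaptor gene Fadd (0.54 ± 0.14), Casp1 (0.74 ± 0.16) and Casp6 (0.70 ± 0.17) rose. Other probes of Casp8 and Casp6 each had 0.39 and did not pass. Of 30 adhesion genes 2 rose (6.67%) and 3 fell, and the median of −0.06 stood at 0.07 under median scaling. The selectin ligand gene Selplg rose by 0.84 ± 0.17 and Icam2 by 0.81 ± 0.16, while the tetraspanin genes Cd53 (−0.78 ± 0.22) and Cd151 (−0.71 ± 0.19) and the integrin gene Itgav (−0.50 ± 0.14) fell.

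**Figure D3:**
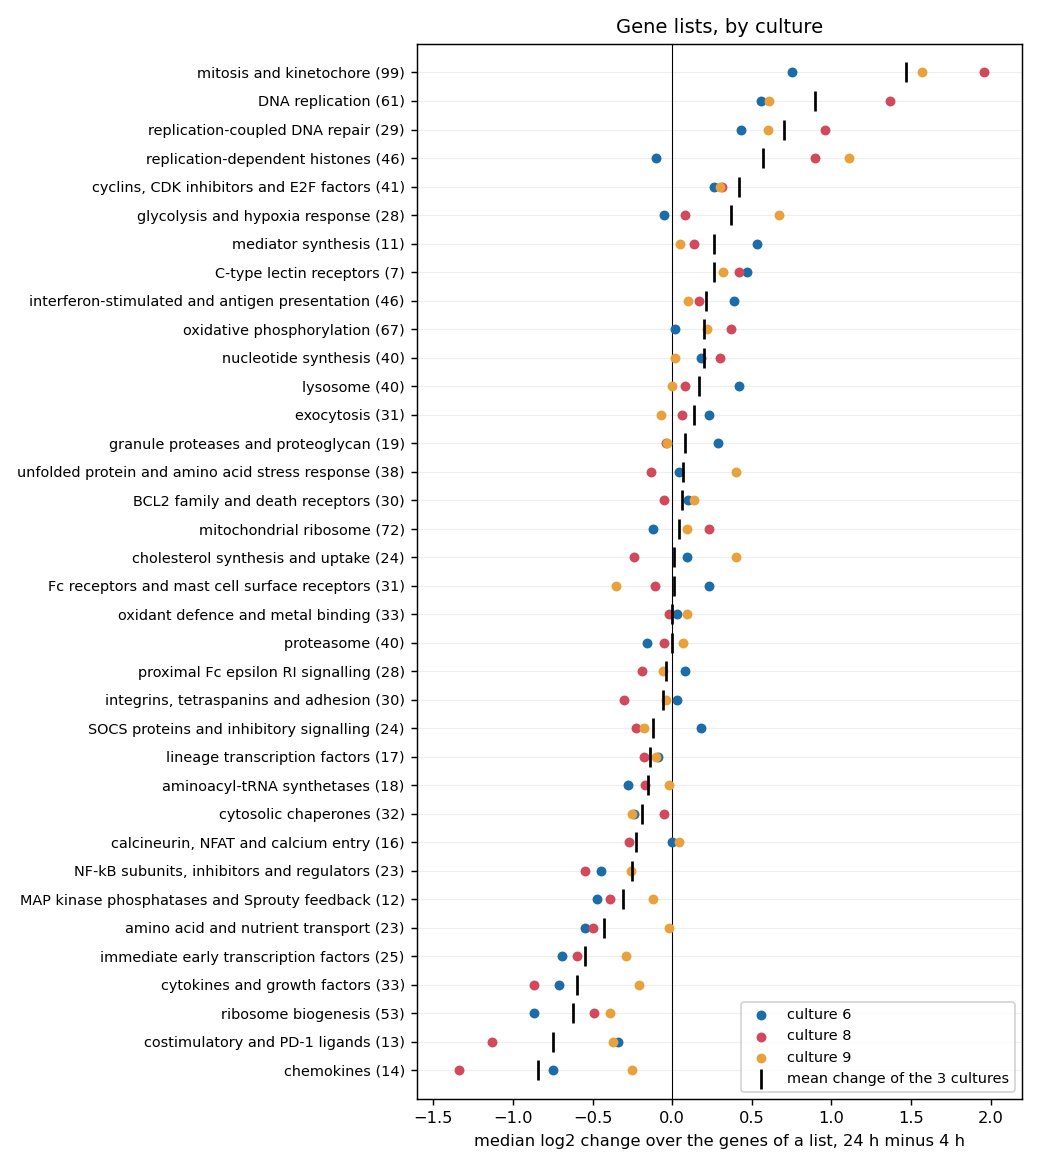
Median log2 change from 4 h to 24 h over the tested genes of each of 36 lists (horizontal axis), with the number of genes in brackets. Coloured points are the medians in cultures 6, 8 and 9, and black ticks the median of the fitted changes. The mitosis list has 0.75, 1.96 and 1.57 in the 3 cultures, and the chemokine list −0.75, −1.34 and −0.25.

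Among the 20 largest rises 15 were in the 6 cell cycle lists, which hold 316 tested genes, each counted once, of which 151 rose and 4 fell. Outside them Mrvi1, whose product is a target of cGMP-dependent kinase in muscle and platelets, had 7.17, 7.72 and 9.15 at 4 h and 10.31, 11.02 and 11.03 at 24 h (2.77 ± 0.38, adjusted p = 0.00363). Mns1, known from sperm tails and cilia, had 9.71, 9.23 and 11.08 and then 12.65, 12.28 and 12.65 (2.52 ± 0.44, adjusted p = 0.0063). Neither overlapped, and culture 9 had the highest 4 h level of each. The others were 3110040M04Rik (2.70 ± 0.54, 1 of 3), D17H6S56E-5 (2.45 ± 0.41, 1 of 3) and Tcf19 (2.43 ± 0.34, 2 of 3), which encodes a nuclear factor made at the G1/S step.

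The 20 largest falls held 5 chemokines and cytokines. Errfi1, a feedback inhibitor gene of the EGF receptor, had 12.99, 13.18 and 9.54 at 4 h and 9.59, 8.96 and 7.94 at 24 h (−3.07 ± 0.66, adjusted p = 0.0119), with culture 9 at 4 h just under culture 6 at 24 h. Emp1, a membrane protein gene, had 13.49, 13.79 and 12.24 at 4 h and 10.71, 10.87 and 10.55 at 24 h, and it fell by 2.46 ± 0.35 (adjusted p = 0.00399) without overlap. In untreated cells Emp1 had 13.71, 12.96 and 11.69, also above every 24 h array. Ch25h, whose product makes 25-hydroxycholesterol, was at least 4.61-fold lower (adjusted p = 0.0179), the retinoic acid carrier gene Crabp2 at least 5.27-fold (adjusted p = 0.00826), Samd4 at least 3.05-fold (adjusted p = 0.0295) and Ngef, an exchange factor gene, at least 2.55-fold (adjusted p = 0.0217). Dhx34, a helicase gene of nonsense-mediated decay, fell by 2.29 ± 0.39, the repressor gene Zbtb32 fell by 2.26 ± 0.50 (1 of 3 arrays at 24 h above the limit, with another probe at −0.37 that did not pass), Slc37a2, a sugar phosphate carrier gene, fell by 2.23 ± 0.54 (1 of 3) and C5ar2, the other C5a receptor gene, fell by 2.04 ± 0.44 (1 of 3). Cryba4, a lens crystallin gene, had 9.15, 8.68 and 8.31 and then 6.90, 6.37 and 6.54 (1 of 3 above the limit at 24 h). It fell by 2.11 ± 0.24 (adjusted p = 0.0022) and also passed without culture 8 (−2.01, adjusted p = 0.0424).

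**Figure D4:**
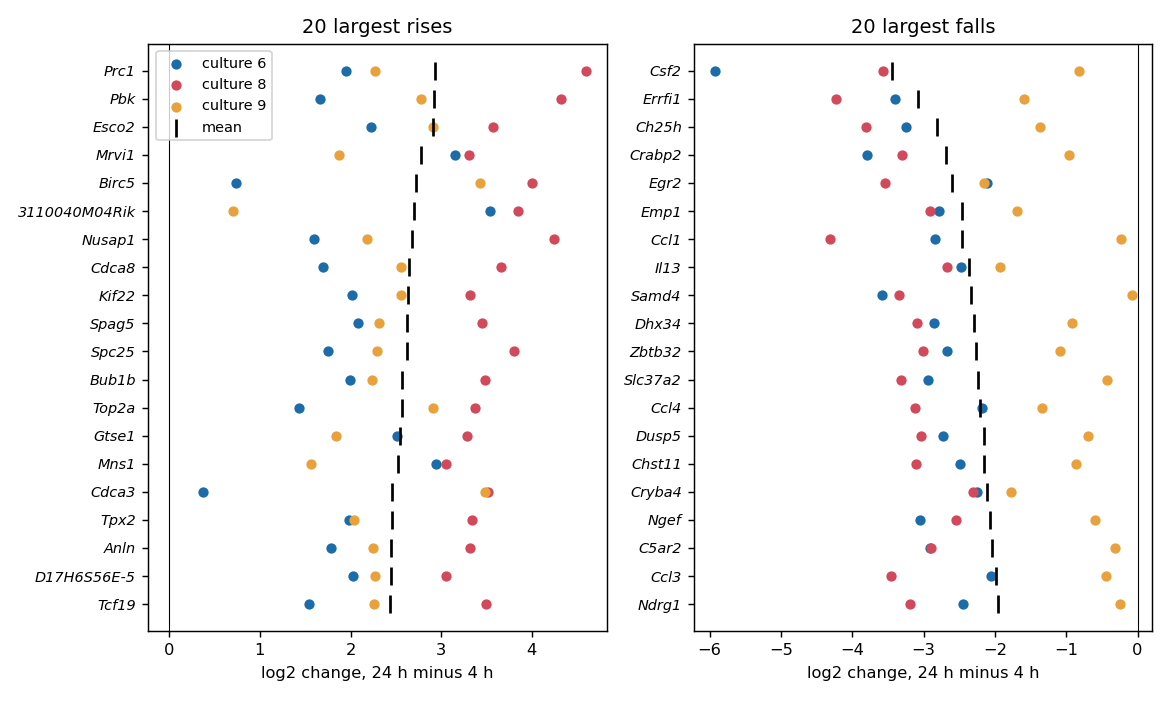
Log2 change from 4 h to 24 h (horizontal axes) in cultures 6, 8 and 9 (coloured points) for the 20 genes with the largest rise and the 20 with the largest fall, of those that passed limma's test and moved one way in all 3 cultures, with black ticks for the mean. Among the falls culture 9 lies nearest to 0 for most genes, and Csf2 has the widest spread.

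The same change was read in the knockout cultures. The 3 probes of Dnmt3a were above the limit on 0 of 18 arrays, wild type included, so that they gave no check of the genotype labels. Of the 1606 genes called in the wild type 1591 had a knockout change of the same sign, and the medians were 0.80 in wild type and 0.58 in knockout for the genes that rose and −0.73 and −0.56 for those that fell. The genes were chosen by their wild-type values, so that the smaller knockout medians are no result. The share with the same sign over all tested genes was not counted. Each knockout culture shared a slide with a wild-type culture, so that the 1591 genes are no independent check of the calls. A test of the difference, knockout change minus wild-type change, called 0 of 8985 genes (0%), with 192 at an unadjusted p under 0.05, and 0 genes in each other setting where it was run. With terms for each slide and time beside the culture, an alternative added after seeing the data, the lowest adjusted p was 0.109.

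The genes with the smallest unadjusted p of that difference were Rcan1, Hapln4, Fdx2, Mrgprg, Hspa4, Clec4e, Nabp2, Chka, Rrn3 and Cdip1, all with an adjusted p of 1. Rcan1, a feedback inhibitor gene of calcineurin, changed by −0.60, −0.28 and −0.30 in wild-type cultures 6, 8 and 9 and by −1.57, −1.42 and −1.11 in knockout cultures 3, 4 and 6. The difference was −0.98 ± 0.21, and the gene was chosen for its small p. In a fit over all probes a second probe of Rcan1 fell past the threshold in the wild type, with −1.13 there, −2.36 in the knockout and a difference of −1.22 ± 0.38. Fdx2, a mitochondrial ferredoxin gene, changed by −0.81, −0.74 and −0.86 in the wild type and by 0.06, −0.28 and 0.15 in the knockout (0.78 ± 0.21). Nabp2, a single-strand DNA binding protein gene, changed by 0.81, 1.20 and 0.93 and by 0.17, 0.06 and 0.50 (−0.73 ± 0.21). Rrn3, the initiation factor gene of RNA polymerase I, changed by −0.45, −0.59 and −0.54 and by 0.09, 0.31 and −0.04 (0.65 ± 0.19). Nfkbia, picked from outside the genes that the rule named for a small p, had a difference of 0.92 ± 0.37 (adjusted p = 1).

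**Figure D5:**
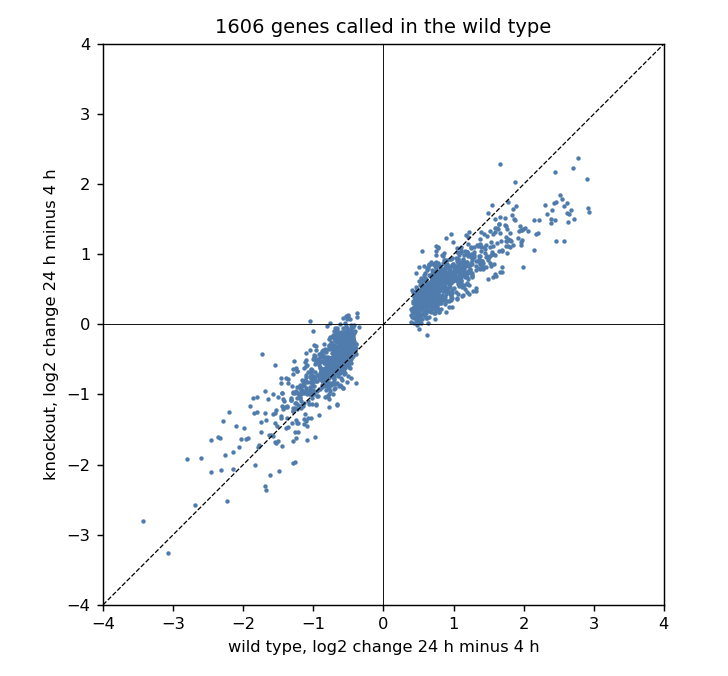
Log2 change from 4 h to 24 h in knockout cells (vertical axis) against that in wild-type cells (horizontal axis) for the 1606 genes called in the wild type, 1 point per gene, with a dashed line where both are equal. Almost all points, 1591, have the same sign in both, and no point lies near 0 on the horizontal axis because such genes did not pass in the wild type.

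The mast cell markers fitted the label, but the markers cannot tell mast cells from a mixture with basophils. All 15 mast cell markers on the array were above the limit on every array of both groups. Their summed intensities were 146457 to 188308 at 4 h and 151858 to 164530 at 24 h. Of 11 basophil markers 8 were above the limit on every 4 h array, and 8 on every 24 h array. On at least 1 wild-type array 10 of 11 basophil markers, 5 of 9 stem and progenitor, 5 of 9 erythroid, 5 of 16 T and NK cell, 5 of 17 macrophage, 4 of 15 neutrophil, 4 of 10 megakaryocyte, 3 of 14 dendritic cell, 2 of 11 B cell, 2 of 12 fibroblast and 1 of 7 eosinophil markers were above the limit. Those above it on none included Cd3d, Cd3e, Cd4 and Cd8a of T cells, Ms4a1 and Pax5 of B cells, Itgam, Mrc1 and the C1q genes of macrophages, S100a8 and Mpo of neutrophils, Epx and Ccr3 of eosinophils, and Col1a1 of fibroblasts. Some summed intensities still moved between the times, and a sum is weighted to its brightest members. That of the 16 T and NK cell markers was 3804 to 4489 at 4 h and 5985 to 6765 at 24 h. Of the 5 tested members 2 changes were above 0 and 3 below, with a median of −0.04. Only 1 of them passed, Cd8b1 (1.41 ± 0.22). The sum of 10 megakaryocyte markers was 2182 to 3321 and 4027 to 5025. Of the 4 tested members 3 changes were above 0 and 1 below, and 1 passed, Gp5 (1.89 ± 0.52). Pf4 and Ppbp were not above the limit. For 17 macrophage markers the sums were 1678 to 2029 and 1442 to 1761, with falls of Lyz1 (−1.21 ± 0.31) and Apoe (−0.74 ± 0.17, 2 of 3). The sums of 12 fibroblast markers were 3784 to 6013 and 3223 to 3774, and those of 11 basophil markers, which include Ccl3, Csf1 and Il4, were 29296 to 53604 and 22448 to 30648. Cd8b1, Gp5, Lyz1 and Apoe were named after their values were seen, and the part of other cells in the changes was not tested.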

How the data were processed

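The authors deposited 2 tables of the same 18 arrays. One holds probe intensities on a linear scale, not normalised, as deposited by the authors; the labelling was with biotin, per the labels' protocols, and no source used here gives the scanner software or any background step. The other holds the authors' log2 values, which differed by at most 0.000556 from log2 of the deposited intensities after quantile normalisation without background correction; it was used as an alternative. No column was left unmapped (0).

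Intensities were corrected with normexp (offset 50), put on the log2 scale and quantile-normalised. Of 45281 probes 34885 have 1 gene symbol in the platform annotation, 18 several and 10378 none. The detection limit of an array was the 99th percentile (share 0.01 above) of 1506 probes for smell and pheromone receptor genes, and a probe was kept if above it on 3 of 18 arrays. Of 16669 kept probes 14073 had 1 symbol, and the brightest per gene gave 8985 genes. No detection p-values were in the tables. A linear model in limma 3.58.1 under R 4.3.3 (lmFit, eBayes, 2-sided, Benjamini-Hochberg over all genes, threshold 0.05) took in all 18 arrays, with culture as a block and terms for genotype and time, on 8 residual degrees of freedom.

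Arrays were paired by the culture numbers in the labels. Deviations from group means correlated in all 18 same-culture pairs, by 0.134 to 0.625 (median 0.361). The 3 pairs compared here, wild-type 4 h with 24 h, had 0.134 to 0.297 (median 0.262). In 27 pairs across genotypes on 1 slide the correlations were −0.189 to 0.751 (median 0.328). Arrays of 1 culture also share a slide, so these values cannot tell culture from slide. The highest correlation between arrays was 0.989, so that none was taken as a repeat. Culture numbers and slides come from the labels and the column headers.

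Named genes were the 20 genes that rose most and the 20 that fell most, if past the threshold and in 1 direction in all cultures, up to 8 members of each list plus its 2 largest changes, and the 10 smallest p for knockout minus wild type. The compared groups and the gene lists were chosen with earlier results of these data known. Alternatives were the block, the arrays in the fit, background correction, normalisation, the filter on dim probes, probes per gene, array weights and leaving out each culture. Terms for slide and time were added after seeing the data.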

Additional observations from a re-analysis of the deposited data

How the results depend on the processing

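The count of 1606 genes kept within 1.5 times under a slide block (1690), a random culture block (1552), no background correction and the authors' log2 values (1562 each), cyclic loess (1739), median scaling (1997, 1662 higher and 335 lower), both other filters (1303 of 19057 genes and 1604 of 7737) and all probes (2283 of 14073). No replicate block gave 491, the 9 wild-type arrays alone 978, and the 6 compared arrays alone 0 by limma, with 2326 at an unadjusted p under 0.05; these fits have fewer degrees of freedom or no pairing. Array weights gave 3008, in a fit that did not fully converge, and slide-by-time terms 3371, whose p-values leave out the spread between slides. Leaving out 1 wild-type culture gave 7 to 1631, from fewer samples. Knockout minus wild type gave 0 genes in every setting run, and it was not run on wild-type arrays alone. No named gene that passed in the main fit changed sign, and changes of sign were not counted for the others. Of the 256 named genes 236 passed in the main fit. Of these 236, 133 no longer passed without the replicate block and 43 under median scaling. The number was 121 without culture 6, 234 without culture 8 and 50 without culture 9. The medians of lineage factors (−0.14) and of SOCS genes (−0.12) stood at 0.02 and 0.03 under median scaling. Probes near the limit bound how far low genes can be read.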
